A study of Mus musculus with 19 samples.

Results

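Neuron cluster N1 is a group of 96 cells among the 2444 neurons that the authors of a study of the mouse medial amygdala sorted into 16 clusters, N1 to N16. Its members were taken by the authors' own cluster name on each cell of their neuron table, and the counts of all 16233 genes for the same cells were read from their table of 20679 cells. There, 93 of the 96 cells carry the authors' neuron class, 2 carry the astrocyte class and 1 the microglia class. The cells were led by Cartpt, the gene of the peptide precursor CART, together with Tac1 and Cck, and most of them held transcripts of the GABA genes. The authors' number is kept as its name, and no cell type name is added.

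The medial amygdala receives olfactory and pheromonal signals and takes part in social, reproductive and defensive behaviour. Its neurons are mostly inhibitory cells that release GABA, made by the decarboxylases Gad1 and Gad2 and loaded into vesicles by Slc32a1, next to glutamate neurons that use the vesicular transporters Slc17a6 or Slc17a7. Many of these neurons also make neuropeptides, which are cut from precursors in the secretory pathway and act through receptors on other cells. CART peptides, substance P and neurokinin A from Tac1, and cholecystokinin from Cck are 3 such systems, known for roles in feeding, stress, reward and anxiety.

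All cells came from male C57BL/6J mice, and single-cell libraries were made by Drop-seq, in which each transcript caught on a barcoded bead is counted once through its unique molecular identifier (UMI). For all libraries with named clusters, the tissue was taken apart by Act-Seq, a dissociation that limits new transcription while cells are isolated. Used only at the end were 1 saline library by Act-Seq, and 1 saline and 1 seizure library by conventional dissociation, all from mice of 8 weeks. The libraries that can hold an N1 cell came from naive mice (6 libraries, mice of 8 weeks), mice after seizure (2 libraries, seizure 1 at 9 weeks and seizure 2 at 8 weeks), mice acutely stressed by immobilization (4 libraries, 2 and 3 at 9 weeks and the other two at 8 weeks) and an odor group (4 libraries, 1 and 2 at 9 weeks and the other two at 8 weeks). Whether the libraries within a group stem from different mice is not in the labels; the p-values below therefore reflect library-to-library spread only, and this may be technical.

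N1 cells were found in 14 of the 16 libraries. Naive libraries 1 to 6 held 15, 5, 2, 4, 1 and 0 of them, seizure 1 and 2 held 12 and 4, immobilization 1 to 4 held 15, 13, 5 and 0, and odor 1 to 4 held 9, 6, 4 and 1. Only 8 libraries had at least 5 N1 cells: naive 1 and 2, seizure 1, immobilization 1 to 3, and odor 1 and 2. Levels are given over these 8 libraries, as mean ± SD in CPM, the UMIs of a gene among the N1 cells of a library scaled to 1000000 UMIs in all. The 96 cells held 257180 UMIs in all, with a median of 2215.5 UMIs (1243 to 7738) and 1255 genes per cell, close to the median of 2187.5 UMIs of the other 2348 neurons. Of 20659 barcodes, 20 occurred in more than 1 library, and 0 N1 cells had such a barcode. A gene with no UMI in any N1 cell could still lie at up to 11.7 CPM, the level of 3 UMIs; this limit and all intervals below cover counting error only.

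RNA of glia was present in N1 as in the other neuron clusters. The summed level of 18 astrocyte markers was 34699 CPM in N1, 35359 CPM in the other neurons and 73088 CPM in the authors' astrocytes, while 18 pan-neuronal genes summed to 9534 CPM in N1, 12634 CPM in the other neurons and 1900 CPM in astrocytes. Aqp4, the water channel of astrocyte endfeet, was seen in 51.0% of N1 cells, in 82.3% of astrocytes (median 1341 UMIs) and in 3.78% of microglia (median 1130 UMIs). Markers of oligodendrocytes (3496 CPM in N1, 158706 CPM in oligodendrocytes) and of microglia (1128 CPM in N1, 61592 CPM in microglia) were low, and Cldn5, the tight junction gene of endothelium, had no UMI in N1. The part of glial RNA in the levels below was not tested.

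Which genes set N1 apart from the other neurons was described and not tested, because the authors formed the clusters from these cells and genes. Genes were ranked by the log2 ratio of mean level in N1 to mean level in all other neurons of the same 8 libraries, with 10 CPM added to both. Of 4666 genes with a UMI in at least 10% of N1 cells or of the other neurons, 40 (0.857%) lay above a log2 ratio of 1 and 108 (2.31%) below -1. The 25 highest among genes seen in at least 10% of N1 cells ended with Osbpl8 (1.12) and Akip1 (1.11), and Mrpl38 (1.11) and Nrp2 (1.11) lay just outside. Apart from Cartpt, Tac1, Cck and Gad2, these leading genes rest on 11 to 39 UMIs each.

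Cartpt (chromosome 13, 99898489 to 99901091, minus strand, mm10, GENCODE M21) was seen in every N1 cell. Its level in N1 was 1351 CPM in naive 1, 1938 in naive 2, 1406 in seizure 1, 1593, 2581 and 2415 in immobilization 1, 2 and 3, and 1922 and 484 in odor 1 and 2. Every library lay far above its own other neurons, which ranged from 44.6 to 99.8 CPM. The means were 1711 ± 665 CPM in N1 and 63.9 ± 19.7 CPM in the other neurons (SD, n = 8 libraries), a log2 ratio of 4.54. Odor 2 was the lowest N1 library, and none of its 6 N1 cells held more than 2 Cartpt UMIs.

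**Figure D1:**
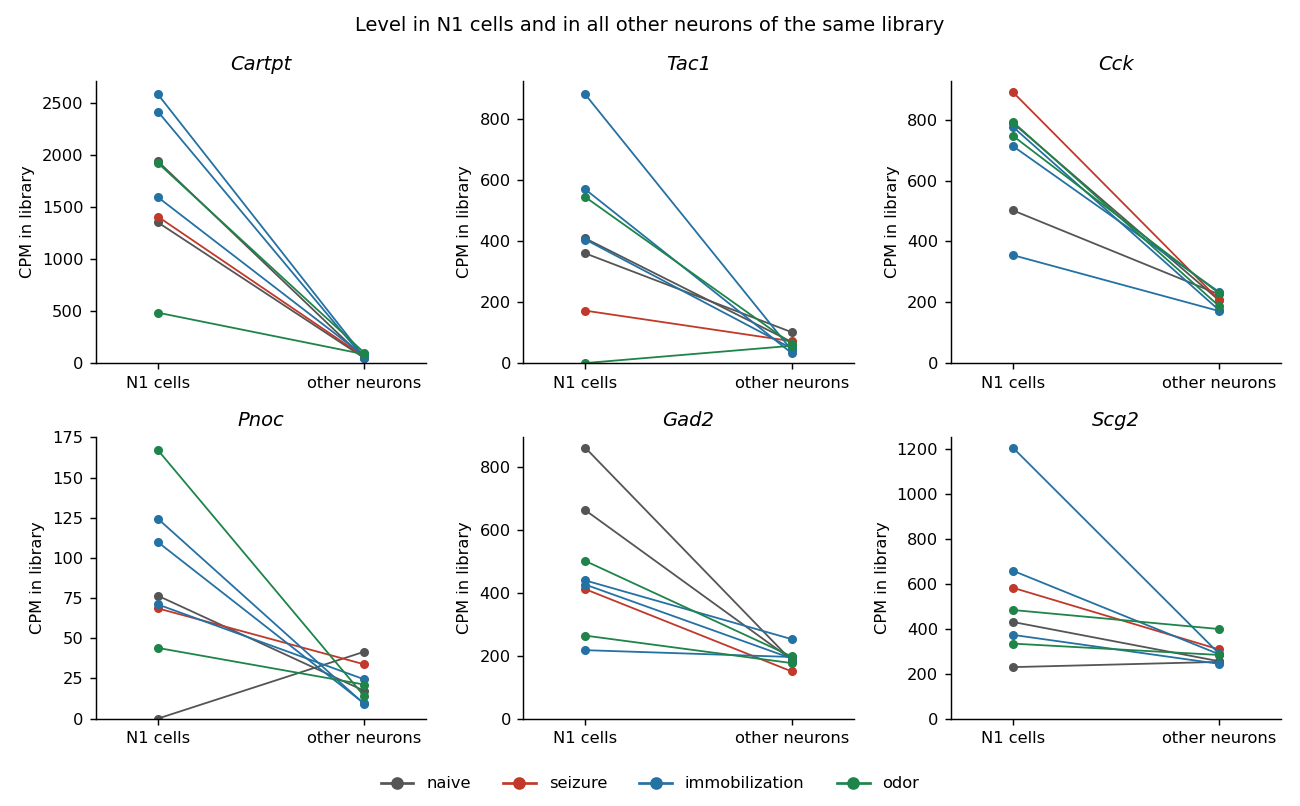
Level in CPM (y axes, from 0) of 6 genes in N1 cells and in all other neurons of the same library; each line is 1 of the 8 libraries with at least 5 N1 cells, coloured by group. Cartpt, Cck and Gad2 were higher in N1 in 8 of 8 libraries, and Tac1, Pnoc and Scg2 in 7 of 8.

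Single cells differed widely in Cartpt. Of the 96 cells, 32 had 1 Cartpt UMI, 17 had 2 and 47 had 3 or more, and the highest had 32. N2, the only other cluster in which most cells held a Cartpt UMI (86.8% of 91 cells), had 37 cells with 1, 27 with 2 and 15 with 3 or more, and at most 7. Among the clustered neurons only, N1 held 61.0% of those with 3 or more Cartpt UMIs and 24.1% of those with any. A further 63 neuron-class cells outside the clusters had 3 or more, and N1 held 28.0% of all cells with 3 or more. In the clusters other than N1 and N2, the share of cells with a Cartpt UMI ranged from 4.03% in N5 to 20% in N4. In glia, 5681 of 5807 astrocytes had no Cartpt UMI, and 0.756% of microglia had one. With each cell thinned to 1000 UMIs, 74.0% of N1 cells kept a Cartpt UMI, against 44.0% in N2, 6.13% of all other neurons, 1.17% of astrocytes (1614 shallower cells left out) and 0.667% of microglia (768 left out).

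**Figure D2:**
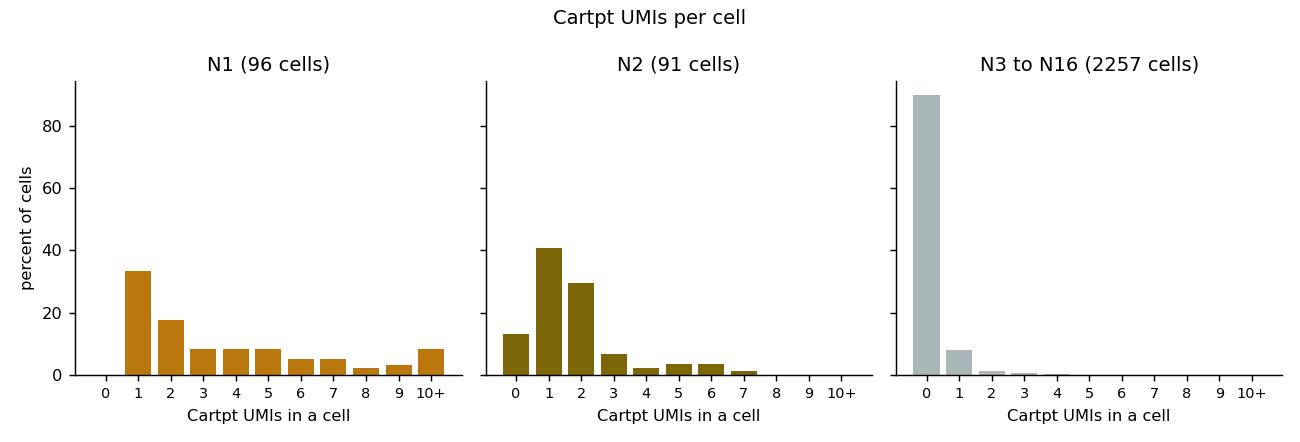
Share of cells (y axis, percent) by number of Cartpt UMIs in the cell (x axis) in N1, in N2 and in N3 to N16 together. No N1 cell lacks Cartpt and its cells reach 32 UMIs, N2 peaks at 1 UMI, and 2033 of the 2257 other cells have none.

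Tac1 (chromosome 6, 7554879 to 7565834, plus strand), the precursor of substance P, came after Cartpt by ratio. Its N1 level was 408 and 359 CPM in naive 1 and 2, 172 in seizure 1, 879, 404 and 568 in immobilization 1 to 3, 543 in odor 1 and 0 in odor 2, where 3 UMIs would have been 132 CPM. All libraries but odor 2 lay above their other neurons. The mean was 417 ± 265 CPM against 60.5 ± 21.2 CPM (log2 ratio 2.60), and 42.7% of N1 cells (95% exact interval 32.7 to 53.2%) held a Tac1 UMI against 11.9% of the other neurons and 1.55% of astrocytes. Tac1-positive N1 cells came from 12 of the 14 libraries with an N1 cell. The next highest cluster was N12, at 206 CPM in 13.6% of its cells.

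Cck (chromosome 9, 121489824 to 121495694, minus strand), the precursor of cholecystokinin, was the most even of the 3 across libraries. It lay at 790 and 502 CPM in naive 1 and 2, 892 in seizure 1, 714, 777 and 355 in immobilization 1 to 3, and 794 and 748 in odor 1 and 2. Each of the 8 values was above all 8 values of the other neurons, which reached at most 234 CPM. The mean was 697 ± 177 CPM against 204 ± 24.8 CPM (log2 ratio 1.72), and 82.3% of N1 cells (73.2 to 89.3%) held a Cck UMI against 29.6% of other neurons and 3.63% of astrocytes. N10 came next at 560 CPM and 74.8% of cells, followed by N11 at 410 CPM, and both are clusters in which Slc17a7 was highest.

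Tac1 and Cck were often seen in the same cell, and Cck also without Tac1. Of the 41 N1 cells with Tac1, 30 also held Cck (73.2%), and of the 55 without Tac1, 49 held Cck (89.1%). All but 6 of the 96 cells held at least 1 of the pair. Cells with 1 Cartpt UMI and cells with 5 or more were close in these shares: Tac1 was in 40.6% of 32 and 48.4% of 31, and Cck in 87.5% and 87.1%. A GABA gene was in 90.6% of the former and 74.2% of the latter.

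Pnoc (chromosome 14, 65400673 to 65425472, minus strand), the precursor of the opioid-like peptide nociceptin, followed, with 24 UMIs in 21.9% of N1 cells against 4.39% of other neurons. Its level was 82.7 ± 51.1 CPM against 21.4 ± 11.6 CPM (log2 ratio 1.56), higher in 7 of 8 libraries, and naive 2 had none. N9 was close to N1 with 76.2 CPM, but in 8.55% of its cells.

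The other leading genes lay lower and varied more. Sytl4, a synaptotagmin-like protein that binds Rab27 on secretory granules, stood at 127 ± 80.5 CPM against 39.4 ± 8.47 CPM (log2 ratio 1.47), and N2 and N1 were alike in the share of cells that held it (18.7% and 18.8%). Arhgap6, a GTPase activating protein, had a log2 ratio of 1.48, Plcxd2, a phospholipase C-like protein, of 1.39, and Terf2ip, a telomere-binding protein, of 1.34. Tmem215, Prps1, an enzyme of nucleotide synthesis, Rnf141 and Dock10, a guanine nucleotide exchange factor, followed at 1.32 to 1.26. Below Gad2, the list went on with Arih1, 2810459M11Rik, Cbr3, Pard3, 4932438A13Rik, Nlgn1, Wars, Bola1, Slc38a10, Pdgfra, Osbpl8 and Akip1, at log2 ratios of 1.25 down to 1.11. Pdgfra marks oligodendrocyte precursors; it was in 12.5% of N1 cells with 18 UMIs in all, at 77.4 ± 78.1 CPM.

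By Gad2, N1 stood with the GABA clusters, while it ranked lower for Gad1 and Slc32a1. Gad2 (chromosome 2, 22622205 to 22693874, plus strand) was at 663 and 861 CPM in naive 1 and 2, 412 in seizure 1, 439, 218 and 426 in immobilization 1 to 3, and 501 and 264 in odor 1 and 2. All 8 values lay above the other neurons of the same library (150 to 253 CPM), though immobilization 2 did so by little. The mean was 473 ± 208 CPM against 192 ± 28.8 CPM (log2 ratio 1.26), and N1 ranked sixth of the 16 clusters, below N4 to N8. Gad2 was seen in 62.5% of N1 cells (52.0 to 72.2%), in 7.44% of the cells of N9 to N11 and in 4.87% of astrocytes. Gad1 was in 23.96% of N1 cells and the vesicular transporter Slc32a1 in 29.2%, with log2 ratios of 0.02 and 0.23 against all other neurons. By pooled level, N1 ranked 9 of 16 clusters for each of them.

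The vesicular glutamate transporters were low in N1. Slc17a6 had 15 UMIs in 10.4% of cells (56.3 ± 73.0 CPM), against 15.1% of other neurons and 1.53% of astrocytes, and its level in N9 was 590 CPM. Slc17a7 had 2 UMIs, both in naive 1, where N10 reached 187 CPM. By cell, 66 N1 cells held a UMI of Gad1, Gad2 or Slc32a1 and none of Slc17a6 or Slc17a7, 1 held only a glutamate transporter, 11 held both kinds and 18 held neither. A GABA gene was thus seen in 80.2% of N1 cells, in all 14 libraries with an N1 cell. Of 5 measured genes of acetylcholine and monoamine neurons, none was seen in 10% of N1 cells, and 3 had no UMI.

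**Figure D3:**
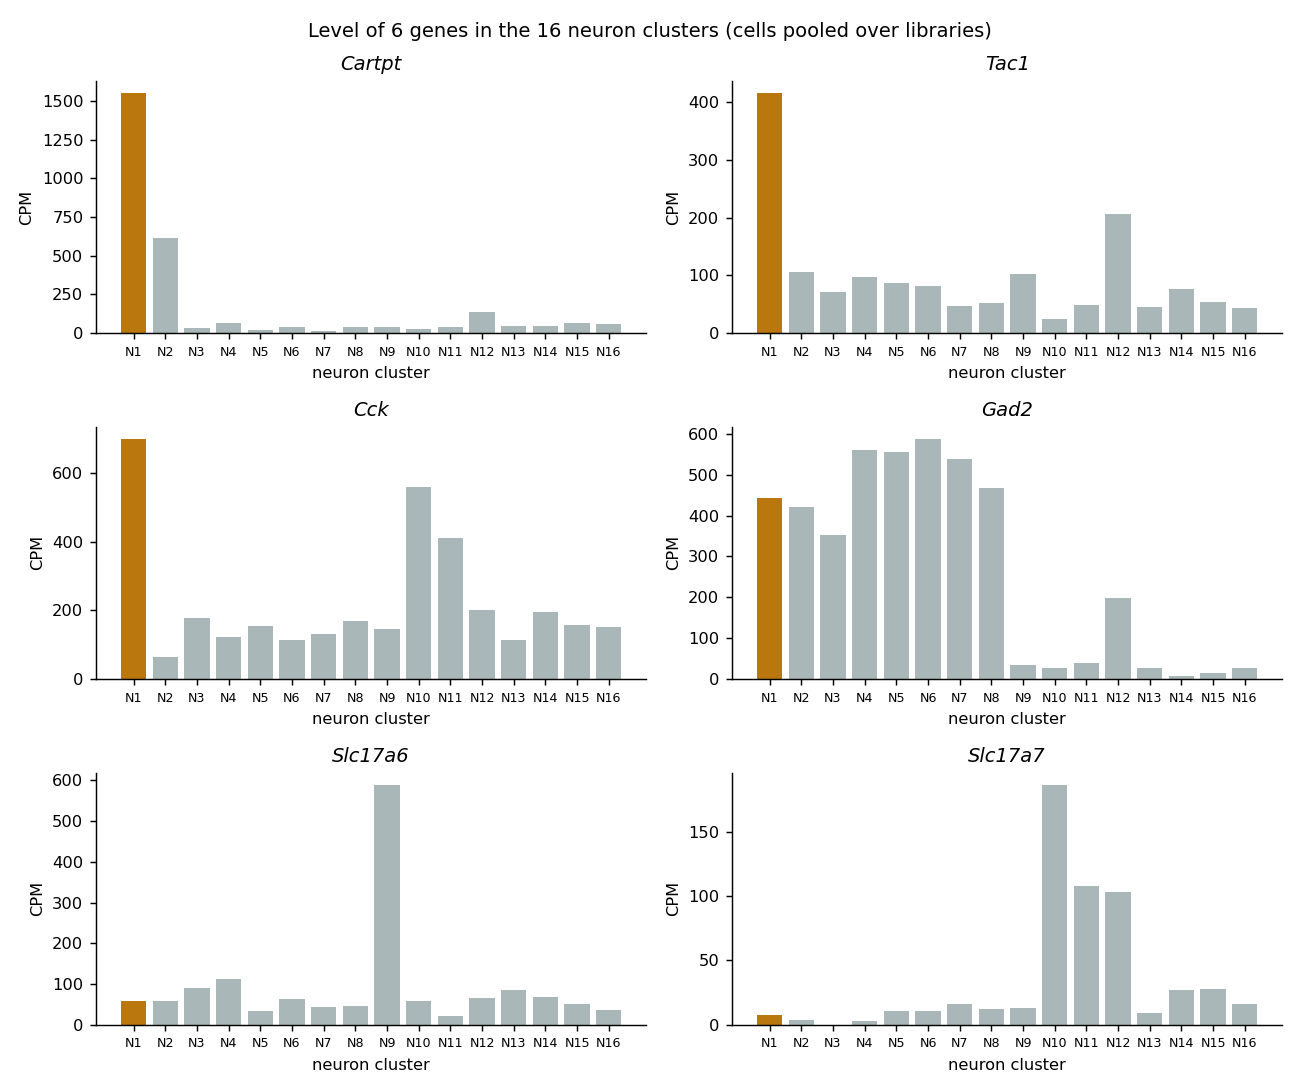
Pooled level in CPM (y axes, from 0) of 3 peptide genes and 3 transmitter genes in clusters N1 to N16 (x axes); N1 is drawn in orange. N1 is highest for Cartpt, Tac1 and Cck, stands among N2 to N8 for Gad2, and is low for Slc17a6 (highest in N9) and Slc17a7 (highest in N10).

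Transcription factors of inhibitory lineages were sparse. Dlx1, a homeobox factor of forebrain GABA neurons, was in 14.6% of N1 cells at 78.7 ± 92.0 CPM against 32.5 ± 6.56 CPM (log2 ratio 1.06). Prox1 and Meis2 were each in 10.4%, at 35.1 ± 35.1 and 71.9 ± 68.0 CPM against 21.8 ± 5.01 and 107 ± 21.8 CPM. Of 20 measured genes of this list, 5 had no UMI, Foxp2 and Zic1 among them (17.8 and 10.3 CPM in the other neurons). Ppp1r1b, the DARPP-32 phosphoprotein of striatal-like projection neurons, was in 10.4% of cells and Bcl11b in 6.25% (log2 ratio -1.07). Of the interneuron genes, Sst was in 19.8% of N1 cells at 132 ± 110 CPM, against 18.1% of the other neurons and 183 ± 125 CPM. Calb1, Calb2 and Nos1 were in 22.9%, 16.7% and 17.7%, and the SDs of their N1 levels overlapped the levels of the other neurons.

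Across a list of 50 neuropeptide and secreted peptide genes that does not hold Pnoc, 40 were in the table and 9 were seen in at least 10% of N1 cells. These 9 had a median log2 ratio of 0.36, against 0.00 over all 4666 genes scored, and 3 lay above 1: Cartpt, Tac1 and Cck. The others were Sst, Scg2, Chga, Chgb, Vgf and Pcsk1n. Penk had 12 UMIs, Npy 6, Pdyn and Ucn3 5 each, and Nts 2. A further 14 had no UMI, among them Vip, Tac2, Gal, Oxt and Grp. In the other neurons Vip, Tac2, Gal and Grp averaged 6.49, 3.25, 3.55 and 0.916 CPM, below the 11.7 CPM that 0 UMIs in N1 allow. Oxt averaged 20.1 CPM there. Avp, the vasopressin gene, had 4 UMIs in N1 and was highest in N9.

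Most genes of peptide storage and processing seen in at least 10% of N1 cells lay close to their level in other neurons. Scg2, secretogranin II of dense-core granules, was the member with the largest ratio: 538 ± 303 CPM against 290 ± 49.2 CPM (log2 ratio 0.87), higher in 7 of 8 libraries, in 64.6% of N1 cells against 39.0%. Immobilization 3, at 1208 CPM, was the highest N1 library, and the others lay between 229 and 659 CPM. Cpe, the carboxypeptidase that trims cut peptides, was at 9169 ± 1346 CPM against 8327 ± 892 CPM, and Pcsk1n, an inhibitor of a prohormone convertase, at 2182 ± 312 against 2135 ± 335 CPM. Scg3, Scg5, Chga, Chgb, Vgf and Pam all had log2 ratios between -0.24 and 0.36. The convertases that cut precursors were sparse: Pcsk2 was at 26.7 ± 49.5 CPM against 53.7 CPM (log2 ratio -0.80), higher in 2 of 8 libraries and in 6.25% of N1 cells, and Pcsk1 had 2 UMIs.

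No receptor gene seen in at least 10% of N1 cells lay above a log2 ratio of 1. Of 36 measured neuropeptide receptors, 13 had no UMI in N1, among them Oprm1, Npy1r, Mc4r and Sstr2. In the other neurons Npy1r and Sstr2 averaged 8.63 and 6.38 CPM, and Mc4r and Oprm1 reached at most 7.98 and 4.05 CPM in a library. These levels are below the 11.7 CPM that 0 UMIs in N1 allow, so a lack in N1 cannot be told from low depth. Of the receptors for cholecystokinin and substance P, Cckar and Cckbr had 1 UMI each and Tacr1 had 2. These counts are too low to set N1 apart from other neurons. Only Ntsr2 (81.2% of cells) and Adcyap1r1 (28.1%) were common; Ntsr2 also belongs to the astrocyte markers, and its level was 821 ± 178 CPM in N1 against 973 ± 96.6 CPM. Of the steroid receptors, the estrogen receptor Esr1 had 3 UMIs. The glucocorticoid receptor Nr3c1 was at 91.6 ± 55.9 CPM against 154 ± 14.6 CPM, higher in 1 of 8 libraries.

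Receptors for glutamate and GABA showed few differences larger than the spread of the N1 libraries. Gria1, an AMPA receptor subunit, was lower in N1 in 8 of 8 libraries, at 324 ± 145 CPM against 515 ± 37.0 CPM (log2 ratio -0.65), while Gria2 was at 618 ± 191 against 504 ± 89.6 CPM. Gabbr2, a subunit of the metabotropic GABA receptor, was also lower in every library (111 ± 61.9 against 166 ± 19.9 CPM). Gabra5, a GABA receptor subunit (log2 ratio 0.80), and the NMDA receptor subunit Grin3a (0.72) had the highest ratios of those named from these lists. Of 28 measured receptors for monoamines, acetylcholine, adenosine and cannabinoids, 10 had no UMI, and only Adora1 was in at least 10% of cells.

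Other neuronal lists held single genes that stood out. Among voltage-gated channels, Kcnip4, a modulator of A-type potassium channels, had a log2 ratio of 1.07 (70.6 ± 72.5 against 28.4 ± 11.01 CPM), and its relative Kcnip2 had -1.03. Pcp4, a calmodulin regulator, was at 266 ± 119 CPM against 546 ± 120 CPM (-1.01), lower in 7 of 8 libraries, and Stmn1, a microtubule regulator, at 45.2 ± 37.9 against 115 ± 24.2 CPM (-1.18), lower in 8 of 8. The 17 scored genes of vesicle release had a median of -0.05 and the 17 of dendrites and the postsynapse -0.12, with none above 1 or below -1.

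At the low end, Snhg11 and Meg3, long RNAs known from neuronal nuclei, had the lowest ratios. Snhg11 stood at 126 ± 209 CPM in N1 and 1124 ± 697 CPM in the other neurons (log2 ratio -3.06), and Meg3 at 661 ± 1122 and 3415 ± 2960 CPM (-2.35), both lower in 8 of 8 libraries. Both means of the other neurons hold cluster N12, where Meg3 reached 61706 CPM and Snhg11 14788 CPM. By pooled level, N1 ranked 5 of 16 clusters for Meg3 and 6 of 16 for Snhg11, so it was not among the lowest clusters. Immobilization 3, with 3410 CPM of Meg3 in 5 cells, lay far above the other N1 libraries, which ranged from 83.6 to 561 CPM, and without it the Meg3 ratio was -3.43. Against N2 to N8 alone Meg3 was at 661 ± 1122 CPM in N1 and 194 ± 114 CPM, and without immobilization 3 at 268 ± 172 and 209 ± 114 CPM, a difference smaller than the SDs. Snhg11 was at 126 ± 209 CPM in N1 and 53.0 ± 26.1 CPM in N2 to N8 (log2 ratio 1.11), higher in N1 in 3 of 8 libraries. The remaining 8 lowest genes, Uhrf1bp1l, Eif3j1, Nt5c3b, Aars, Gnpda2, Zfp644, Rnf6 and Ogt, had 2 to 6 UMIs each in N1, the fewest of all 16 clusters by level, and log2 ratios of -1.88 to -1.62.

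N2 was the cluster most like N1 in Cartpt, and Cck separated the pair. Over the 5 libraries with at least 5 cells of both, Cartpt was at 1771 ± 505 CPM in N1 and 594 ± 189 CPM in N2 (log2 ratio 1.56), and Cck at 793 ± 63.7 against 62.3 ± 37.8 CPM (3.47), with N1 higher in 5 of 5 libraries for both. Tac1 (481 ± 259 against 146 ± 70.7 CPM) and Pnoc (109 ± 39.7 against 11.5 ± 16.3 CPM) were also higher in N1 in 5 of 5. Bmpr1b, a receptor for bone morphogenetic proteins, was lower in N1 in 5 of 5 (6.86 ± 15.3 against 93.5 ± 53.2 CPM, in 3.13% against 23.1% of cells), and Npy likewise (16.1 ± 24.4 against 80.3 ± 28.8 CPM). Gad2 (447 ± 161 against 374 ± 127 CPM), Slc32a1 (149 ± 65.1 against 198 ± 81.2 CPM) and Scg2 (436 ± 179 against 400 ± 184 CPM) differed by less than their SDs.

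Against the pooled clusters with high Gad2 (N2 to N8), the same peptide genes led: Cartpt had a log2 ratio of 4.11, Tac1 of 2.39, Cck of 1.98 and Pnoc of 1.44, while Gad2 was level (473 ± 208 against 467 ± 86.0 CPM). Gad1 was lower in N1 in 8 of 8 libraries, at 86.3 ± 40.1 against 160 ± 30.5 CPM. Against N9 to N11, the clusters highest in a glutamate transporter, Cartpt (5.19), Sytl4 (3.45), Gad2 (3.43), Tac1 (2.73) and Dlx1 (1.66) were higher. Ndnf, a secreted neuron-derived factor, had no UMI in N1 against 371 ± 256 CPM, and Slc17a7 (-2.84), the cortical-type transcription factor Bhlhe22 (-2.89) and Nptx1, a synaptic pentraxin (-2.42), were lower. Cck was at 697 ± 177 CPM against 426 ± 127 CPM in these glutamate clusters (log2 ratio 0.70), higher in N1 in 7 of 8 libraries. Over 9509 genes, the whole profile of N1 correlated best with N3 (r = 0.933), N13 (0.933) and N15 (0.932) and least with N12 (0.604). These are correlations across genes, which are not independent, and the clusters share libraries and glial RNA.

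A check on cells that the authors did not cluster asked whether the peptide genes of N1 go together with Cartpt elsewhere. It was added after the N1 genes were seen. The authors' neuron class holds 6206 cells outside the 16 clusters, of which 151 had at least 2 Cartpt UMIs and 5766 had none, with medians of 919 and 860 UMIs. Counts were summed per library over both sets, and 12 libraries entered an edgeR quasi-likelihood F-test with the library as a block and Benjamini-Hochberg adjustment over 2314 genes. In all 36 genes (1.56%) differed, 16 higher (0.691%) and 20 lower (0.864%) in the cells with Cartpt, where the median log2 difference of all genes tested was -0.15. The summed counts of the 151 cells were far smaller than those of the 5766. In simulated counts for this fit, edgeR made 1, 13 and 15 false calls at log2 changes of 1, 2 and 3. It recovered 34.8%, 99.3% and 100% of the changed genes tested there. Some of the 36 calls may therefore be false.

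Tac1 and Cck were higher in these unclustered cells with Cartpt. Tac1 ranged from 0 to 1079 CPM over the 12 libraries with a mean of 404 ± 319 CPM, against 61.7 ± 16.8 CPM (39.2 to 102) in the cells without, and was higher in 11 of 12 libraries, odor 3 being the exception. The edgeR log2 difference was 2.43 (SE 0.32, adjusted p = 3.23e-11). Cck was at 563 ± 353 CPM against 151 ± 30.0 CPM, higher in 11 of 12 libraries (log2 difference 1.73, SE 0.27, adjusted p = 6.46e-08 in edgeR). Of the 25 leading genes of N1, 3 passed the filter on low counts, and Tac1 and Cck were the 2 called. The filter used the cells with Cartpt as well, so a gene high in them could pass largely through them. The call for Tac1, low in the cells without, has this limit. The third gene, Gad2, had a log2 difference of 0.69 (adjusted p = 0.235 in edgeR), higher in 10 of 12 libraries. Slc32a1 was likewise not called (0.87, adjusted p = 0.338 in edgeR), and Slc17a7 had no UMI in any library's cells with Cartpt, against 16.5 ± 10.5 CPM without. With so few cells with Cartpt, a lack of Slc17a7 cannot be told from low depth. Slc17a6 was at 166 ± 252 CPM with Cartpt (0 to 688) and 72.1 ± 18.9 CPM without, higher with Cartpt in 4 of 12 libraries.

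The other higher genes included 3 of secretory granules, Scg2 (log2 difference 1.74), Chgb (1.31) and Resp18 (1.03), and Nell2 (1.48), Caly (1.44), the sodium pump subunit Atp1b1 (1.08) and Rtn1 (0.87); those named were chosen after their values were seen. Scg2 was uneven, from 0 to 4726 CPM with Cartpt, and higher in 8 of 12 libraries. Among the lower genes were the nuclear RNAs Meg3 (-2.12), Malat1 (-1.79) and Snhg11 (-0.92) and the glial genes Mbp (-1.44), Agt (-0.77) and Sparcl1 (-0.42). Meg3 was lower with Cartpt in 11 of 12 libraries, and seizure 2, at 11075 against 5798 CPM, was the exception. The calls for the peptides depended on which cells entered. With only cells that held a Snap25 UMI, 2 genes were called, and the differences of Tac1 (1.12, adjusted p = 0.949 in edgeR) and Cck (1.42, adjusted p = 0.850) did not pass. With only cells of at least 1000 UMIs, 6 genes were called and Cck was at 1.55 (adjusted p = 0.112 in edgeR). Tac1 did not pass the filter on low counts there, nor without immobilization 1, so it was not tested in these settings. Without immobilization 3 the count of called genes was 19 and without immobilization 2 it was 20.

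**Figure D4:**
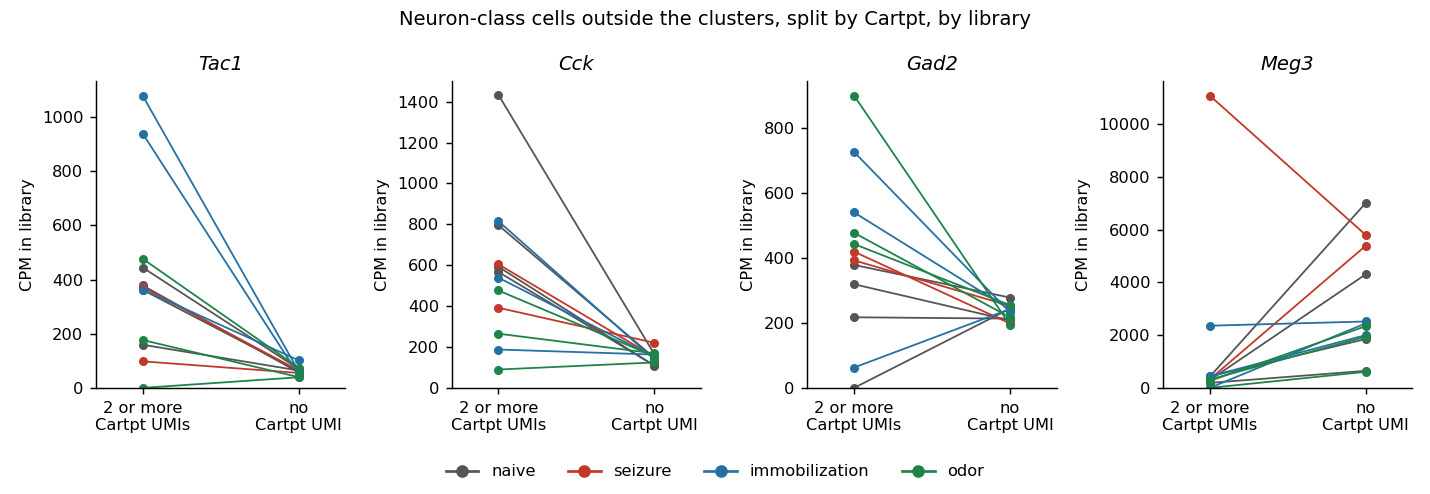
Level in CPM (y axes, from 0) of Tac1, Cck, Gad2 and Meg3 in neuron-class cells outside the clusters with at least 2 Cartpt UMIs and with none; each line is 1 of 12 libraries, coloured by group. Tac1 and Cck are higher with Cartpt in 11 of 12 libraries and Gad2 in 10 of 12, and Meg3 is lower in 11 of 12.

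The share of N1 among neurons was compared between the groups over libraries with at least 20 neurons. N1 made up 5.10%, 3.79%, 0.922% and 4.21% of neurons in naive 1 to 4, 3.31% and 2.86% in seizure 1 and 2, 5.28%, 5.22% and 5.32% in immobilization 1 to 3, and 4.33%, 4.96% and 1.89% in odor 1 to 3. Only the immobilization libraries lay above every naive library, and naive 3, with 2 N1 cells of 217 neurons, was the lowest of the 12. The exact 95% binomial intervals of the single libraries were wide, such as 1.75 to 12.0% in immobilization 3 (5 cells of 94).

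The immobilization mean was 5.27 ± 0.0496% (n = 3) against 3.51 ± 1.81% (n = 4) in naive libraries, a difference of 1.77 percentage points (exact two-sided permutation test, p = 0.0571, adjusted p = 0.171 over 3 comparisons). The smallest p that 3 against 4 libraries allow is 0.0286. Without naive 3 the difference was 0.907 points, and over all libraries with a neuron, immobilization 4 with 0 of 15 included, it turned to -0.0483 points. The seizure mean of 3.08 ± 0.317% (n = 2) differed from naive by -0.424 points (exact permutation p = 0.8, adjusted p = 0.857, smallest possible p 0.0667), and the odor mean of 3.72 ± 1.62% (n = 3) by 0.219 points (exact permutation p = 0.857, adjusted p = 0.857). None of the 3 differences passed the test.

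**Figure D5:**
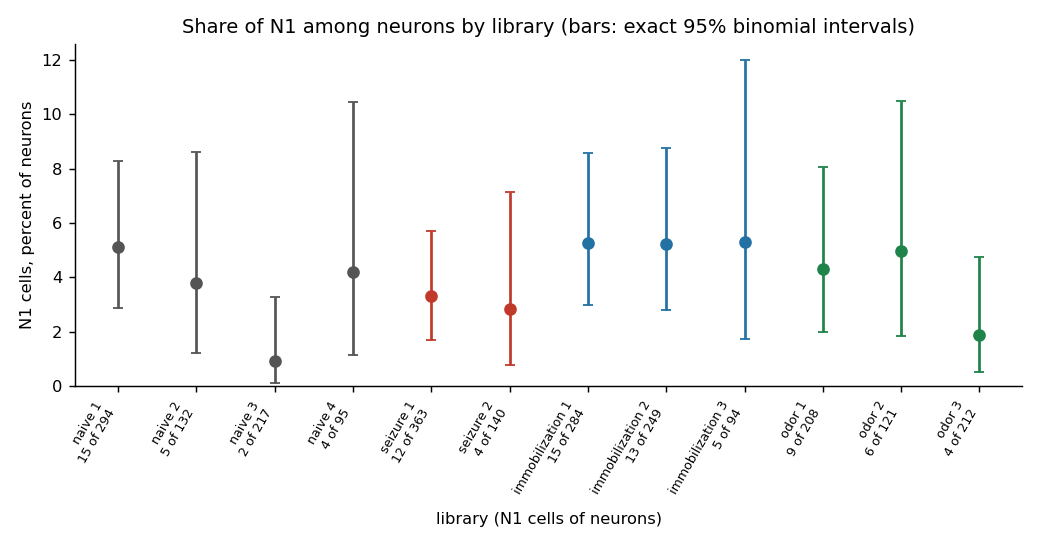
Share of N1 among the neurons of a library (y axis, percent, from 0) for the 12 libraries with at least 20 neurons (x axis, with the N1 cells and neurons of each), coloured by group; bars are exact 95% binomial intervals. Immobilization 1 to 3 lie at 5.22 to 5.32%, naive 1 to 4 at 0.922 to 5.10%, and the intervals overlap throughout.

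Whether N1 cells changed their expression after seizure, immobilization or odor was tested on counts summed over the N1 cells of the 8 libraries with at least 5 of them. Seizure is then 1 library, which is assumed to vary like those of the other groups. Of 902 genes tested with edgeR, 0 (0%) changed in each of the 3 comparisons with naive. At an unadjusted p under 0.05 there were 41, 43 and 28 genes after seizure, immobilization and odor, and DESeq2 also called 0, with 6, 9 and 8 unadjusted. The lowest adjusted p was 0.841, 0.816 and 0.982. Recovery in simulated N1 counts was limited: with a log2 change of 2, edgeR recovered 14.6% for seizure, 44.3% for immobilization and 30.9% for odor. These are shares of the changed genes that passed the filter on low counts, 96, 113 and 110 of 200. At a log2 change of 1 the shares were 1.16%, 0% and 1.22%, of 86, 100 and 82 such genes. The simulated counts were given a larger spread between libraries than edgeR estimated in the data, so these shares may be too low.

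Tsc22d3, a leucine zipper factor induced by glucocorticoids, was the 1 gene of those picked for activity and stress that could be tested. Its N1 level was 102 and 215 CPM in naive 1 and 2, 206 in seizure 1, 247, 404 and 355 in immobilization 1 to 3, and 209 and 308 in odor 1 and 2. The 3 immobilization libraries lay above both naive libraries, and odor 1 and seizure 1 lay between the naive values. The edgeR log2 differences were 0.62 (SE 0.93, adjusted p = 0.981), 1.28 (SE 0.69, adjusted p = 0.816) and 0.90 (SE 0.78, adjusted p = 0.982) after seizure, immobilization and odor. Seizure 1 came from mice of 9 weeks and the naive libraries from mice of 8 weeks, and with age as a covariate the seizure value for Tsc22d3 was -0.00942. Over all libraries it had 7 UMIs in 27 naive N1 cells, 8 in 16 after seizure, 27 in 33 after immobilization and 15 in 20 in the odor group. The 95% Poisson intervals of the naive level (37.9 to 194 CPM) and the immobilization level (215 to 475 CPM) did not overlap, which covers counting error and not the spread between libraries.

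The other genes of this kind were too sparse to test. Fos, the immediate early transcription factor, had 0, 3, 1 and 2 UMIs in naive, seizure, immobilization and odor N1 cells, and 0 UMIs in naive cells leave a 95% Poisson upper limit of 49.6 CPM against 76.2 CPM (15.7 to 223) after seizure. Egr1 had 1, 5, 3 and 6, Junb 1, 2, 3 and 0, and Arc 1, 2, 2 and 3 UMIs. Of the glucocorticoid-linked genes, Fkbp5 had 4, 0, 7 and 0, Nfkbia 4, 9, 9 and 0, and Sgk1 3, 1, 4 and 1 UMIs. The counting intervals of the 4 groups overlapped for Fos, Egr1, Junb and Arc, and those of Nfkbia did not overlap between seizure (105 to 434 CPM) and odor (0 to 60.6 CPM).

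The genes that define N1 were not called either. Cartpt had log2 differences of -0.10, 0.50 and -0.36 after seizure, immobilization and odor (edgeR adjusted p = 0.981, 0.816 and 0.982), Cck of 0.42, -0.03 and 0.17, and Tac1 of -1.12, 0.72 and -0.48. Gad2 had log2 differences of -0.77, -1.01 and -0.90, since naive 1 and 2 were the 2 highest libraries for it; its lowest adjusted p was 0.816 in edgeR. A test of whether the response of N1 differed from that of all other neurons in the same libraries, an interaction term in edgeR over 7839 genes, called 0 genes (0%) in each comparison, with 149, 203 and 167 at an unadjusted p under 0.05. The 3 comparisons share the naive libraries. Simulated counts for immobilization were again given a larger spread than edgeR estimated, which may understate recovery. In them, the interaction term recovered 0%, 3% and 25% of changed genes at log2 changes of 1, 2 and 3. A lack of calls can therefore not show that the responses were alike.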

How the data were processed

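The authors deposited tables of UMI counts (whole numbers, genes by cells), in which a cell's name gives its library and its class or neuron cluster. Per the submitters' processing notes, bcl2fastq 2.17.1.14 and STAR 2.5.0a were used with the mm10 build; the counting tool, its strand setting, the cell filters and the handling of doublets were each not given in the sources used here, and no doublet caller was run. The authors' names were kept. The members and gene lists were chosen with earlier results of these data known. Counts were summed per library over N1 cells (at least 5) and compared in edgeR 4.0.16 by its quasi-likelihood test (TMM scaling, filterByExpr, Benjamini-Hochberg adjustment, threshold 0.05) in R 4.3.3, with group means only; DESeq2 1.42.0 was an alternative. Fits were tested on simulated data with 200 genes changed and a spread between libraries set above the edgeR estimates. Named genes were the 25 highest and 10 lowest log2 ratios (pseudocount 10 CPM), list members in at least 10% of N1 cells, transmitter genes and 8 activity and stress genes. Shares were compared by exact permutation with SciPy 1.17.1 (Python 3.11.15), and figures drawn with matplotlib 3.10.9. N1 libraries entering fits held 13932 to 39232 UMIs.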

Additional observations from a re-analysis of the deposited data

Results flagged for a closer look

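N1 cells of naive 3 had a median of 5790.5 UMIs, far from the other naive libraries with N1 cells, which had medians of 1714 to 2202 UMIs. The value comes from 2 cells. This gap stood out in 1 of 3 groups looked at, and chance alone marks about 1 in 20 groups.

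The deposited table that sets Act-Seq beside conventional dissociation holds 3 libraries outside the comparisons above: a saline control by Act-Seq (saline 7), a saline control by conventional dissociation and a library after seizure by conventional dissociation. They carry no cluster names, so cells with a Snap25 UMI and at least 2 Cartpt UMIs were taken (26, 47 and 26 cells), and 16 genes were compared with saline 7 as the level of the control. In the saline library by conventional dissociation 72.3% of these cells held Slc17a6 (95% exact interval 57.4 to 84.4%), against 26.9% (11.6 to 47.8%) in saline 7. Penk was in 55.3% and 57.7% of these cells in the conventional saline and seizure libraries, against 7.69% in saline 7. Meg3 was in 93.6% and 96.2%, against 38.5%, Snhg11 in 93.6% and 84.6%, against 30.8%, and Scg2 in 97.9% of those of the conventional saline library, against 65.4%. Only values above saline 7 were flagged, and Aqp4 lay below it (2.13% and 7.69%, against 57.7%). The gaps were not particular to Cartpt. In cells without it, conventional saline against saline 7, Slc17a6 was in 33.0% and 12.2% and Penk in 32.3% and 7.92%. Meg3 was in 77.8% and 29.2% of them, Snhg11 in 72.1% and 18.3%, and Scg2 in 64.8% and 30.1%. The median depth of these cells was 5261 UMIs in the conventional saline library, 2625 in the conventional seizure library and 3425 in saline 7, and with 1 library each the method cannot be told apart from the library. In saline 7 itself, Tac1 was in 50% of the cells with Cartpt and 11.5% of those without, Cck in 61.5% and 20.8%, and Gad2 in 65.4% and 31.2%, at median depths of 3425 and 1886.5 UMIs.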

How the results depend on the processing

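Seizure rests on 1 library. Depth let 902 genes be tested, and simulated log2 changes of 1 were mostly missed. The alternatives for the cells outside the clusters were chosen after seeing the data, as were those for the log2 ratios of N1. Of 840 such ratios by gene and alternative, 829 moved by less than the spread between libraries and 11 by more; the 25 leading genes stayed above 0 in all 300, the lowest being Gad2 at 0.52 against N2 to N11. The replicate block gave 0 genes in N1 cells after immobilization and odor, with 36 and 29 at an unadjusted p under 0.05. Deviations of same-numbered libraries correlated at -0.085 to 0.036. With so few libraries and UMIs, these values cannot show whether the numbers pair libraries.

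Counts of genes changed in N1 cells were 2 after seizure (1 higher, 1 lower) and 2 after immobilization (both lower) with at least 10 N1 cells per library, where odor gave no value, and 1 after seizure with only the 2 groups compared. Leaving out 1 library gave 0 to 1 after seizure (1 without immobilization 1, odor 1 or odor 2), 0 to 2 after immobilization (2 without naive 2, 1 without immobilization 1, odor 1 or odor 2) and 0 to 0 after odor. The response of N1 minus that of other neurons gave 1 gene each after seizure and immobilization without N13 to N16, and 0 to 0, 0 to 1 (1 without naive 2 or seizure 1) and 0 to 0 genes with 1 library left out. With age as a covariate the log2 difference of Tsc22d3 after seizure was -0.00942 (adjusted p = 1.00). The cause was not tested.

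The difference in the N1 share turned direction after seizure as a share of all cells (0.0106 points) and without naive 1 (0.108), with a range of -1.29 to 0.108 over libraries left out. After immobilization it did so over all libraries with a neuron (-0.0483), with a range of 0.907 to 2.30. After odor it did so as a share of all cells (-0.0387), in mice of 8 weeks (-1.62) and without naive 3 (-0.643), odor 1 (-0.0828) or odor 2 (-0.399), with a range of -0.643 to 1.137. Adjusted p ranged from 0.171 to 1 over all of these.

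Outside the clusters, the 36 genes that differ with Cartpt became 21 with at least 3 Cartpt UMIs (3 higher, 18 lower; Tac1 2.12, adjusted p = 0.0880), 2 with only Snap25-positive cells, 6 with at least 1000 UMIs, 1904 with no filter on low counts (19 higher, 1885 lower; Gad2 -0.0878) and 19 to 45 with 1 library left out. Scg2 was not called with at least 3 Cartpt UMIs (0.36), in Snap25-positive cells (0.21) or at 1000 UMIs (0.23). The cause was not tested.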
